A study of Mus musculus with 6 samples.

Results

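Cerebellins are small secreted proteins that carry a C1q domain and act in the cleft of the synapse. On the presynaptic side they bind neurexins, membrane proteins of the nerve terminal, and on the postsynaptic side they bind the delta glutamate receptors, so that one cerebellin can bridge both membranes. The bridge is best known from the cerebellum, where Cbln1 of granule cells joins parallel fibres to Purkinje cells. The genes described here are the cerebellins Cbln1, Cbln2, Cbln3 and Cbln4 and the neurexins Nrxn2 and Nrxn3, taken by symbol as 6 of the 52636 genes in a count table of mouse vestibular epithelium. They were selected on the fold changes of Cbln4 and Nrxn3 between these same libraries, so their values are given as a description, with no p. Where the study's thresholds are mentioned for them, that only describes the values that chose them.

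The table holds bulk RNA-seq of the vestibular sensory epithelium of male 129S1/SvImJ mice, 2 to 4 months old at the start. Control animals (n = 3) had plain water, and IDPN animals (n = 3) had water with 30 mM of 3,3'-iminodipropionitrile, a nitrile toxic to the hair cells (HCs) of the inner ear, over 8 weeks. Each library is 1 animal, with both utricles and all 6 cristae combined, so HCs of both types, supporting cells, nerve endings and stroma were sequenced together. All libraries carry 1 batch label, but the Control animals share a title code stem that no IDPN animal has, and the treatment and that code cannot be told apart. IDPN 2 and IDPN 3 share another stem, which IDPN 1 lacks, and IDPN 1 had the highest normalised counts of the IDPN libraries for Cbln4, Nrxn3 and the partner gene Clstn2. Estimated counts totalled 40474847 to 43566332 per library. Values below are normalised counts, scaled by DESeq2's median-of-ratios size factors (0.825 to 1.21), unless another scale is named.

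Cbln4 and Nrxn3 made up nearly all of the reads of these 6 genes in Control, and both were lower after IDPN. Cbln4 lay 23.5-fold lower in IDPN than in Control, and Nrxn3 2.74-fold lower. Cbln1, Cbln2, Cbln3 and Nrxn2 averaged under 25 normalised counts, too few for their small differences to be resolved. Of the 45 other genes of the cerebellin and neurexin pathway examined, 34 could be tested. By the study's thresholds 8 of them (23.5%) were downregulated, led by Nlgn1 and Clstn2, beside 3.42% of all genes tested. Another 1 (2.94%) was upregulated, beside 2.32%. With libraries scaled to total counts, 3 were downregulated, beside 1.28% of all genes tested, and 1 upregulated, beside 3.64%. The list was chosen with earlier results of these data known, so these counts are a description.

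Cerebellins bind the forms of neurexin that carry a short insert at splice site 4, which is encoded by 1 alternative exon. The exon of Nrxn3 is shown because it is the part of the gene that cerebellin binding turns on. It is a coding exon of 90 bases at chr12:90199147-90199236 (GRCm38, plus strand), present in 5 annotated transcripts of GENCODE M21 and skipped in 2. It is printed whole, in lower case.
Nrxn3: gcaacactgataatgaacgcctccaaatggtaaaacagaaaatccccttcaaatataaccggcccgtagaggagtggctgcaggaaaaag
The deposited counts are per gene and add transcripts with and without the exon, so the values of Nrxn3 below do not tell how much of it could bind a cerebellin.

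Cbln4 (ENSMUSG00000067578.3; chr2:172036233-172043466, GRCm38, minus strand) encodes the cerebellin that has also been reported to bind the netrin receptor DCC and its relative neogenin. Control 1 to 3 had 774, 811 and 697 normalised counts of it, against 48.0, 16.1 and 31.7 for IDPN 1 to 3. Every IDPN library lay far under every Control library, with IDPN 2 the lowest. From a Control mean of 761 ± 58.5 (SD, n = 3) to an IDPN mean of 31.9 ± 16.0 (SD, n = 3), the log2-Fold_Change was -4.56, with an SE of 0.29. Ordered by fold change, Cbln4 was the 14th most reduced of 17650 genes tested, and the 2nd of the 11736 with a mean of at least 100. Its IDPN values rest on 58, 16 and 34 estimated counts, against 638 to 783 in Control.

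Nrxn3 (ENSMUSG00000066392.11; chr12:88722876-90334935, GRCm38, plus strand) encodes a presynaptic neurexin and is annotated with 13 transcripts. Control 1 to 3 had 706, 781 and 1031 normalised counts, against 410, 302 and 206 for IDPN 1 to 3. The groups did not overlap, and the spread within each group was wider than that of Cbln4 in Control. The mean went from 839 ± 170 (SD, n = 3) to 306 ± 102 (SD, n = 3), a log2-Fold_Change of -1.45 with an SE of 0.26. By fold change Nrxn3 was the 345th most reduced of the 17650 genes, and the 66th of those with a mean of at least 100.

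The other cerebellins were near the detection limit in both groups. Cbln1 (ENSMUSG00000031654.16), the cerebellin of cerebellar granule cells, had 20.6, 6.93 and 8.01 normalised counts in Control, against 9.10, 17.1 and 5.60 with IDPN. Cbln2 (ENSMUSG00000024647.14), a forebrain cerebellin, had 7.28, 8.08 and 0 in Control, against 0, 1.00 and 10.3 with IDPN. Cbln3 (ENSMUSG00000040380.13), which needs Cbln1 as a partner to be secreted, had 4.85, 17.3 and 1.78 in Control, against 15.7, 16.1 and 5.60 with IDPN. For each of these genes the groups overlapped. The 95% interval of the log2-Fold_Change ran from -1.84 to 1.53 for Cbln1, from -3.71 to 2.84 for Cbln2 and from -1.26 to 2.58 for Cbln3, so a several-fold difference in either direction was not detectable at this depth. Leaving out IDPN 3 moved the Cbln2 estimate from -0.44 to -3.43, and leaving out Control 2 moved that of Cbln3 from 0.66 to 1.94.

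Nrxn2 (ENSMUSG00000033768.16) was likewise low, with 12.1, 25.4 and 34.7 normalised counts in Control, against 24.8, 16.1 and 28.9 with IDPN. The groups overlapped, and the 95% interval of its log2-Fold_Change was -1.25 to 1.13 around an estimate of -0.06. Of the 6 genes, 5 passed DESeq2's filter on low counts, and Cbln2 did not. The study's thresholds (adjusted p, Padj, under 0.05 and a fold change over 1.5) were met downwards by Cbln4 and Nrxn3, 2 genes, beside 3.42% of all genes tested, and the groups lay apart with IDPN lower for the same 2, beside 11.4% (11.1% for IDPN higher). Nothing is read from these counts, because this contrast chose the genes.

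**Figure D1:**
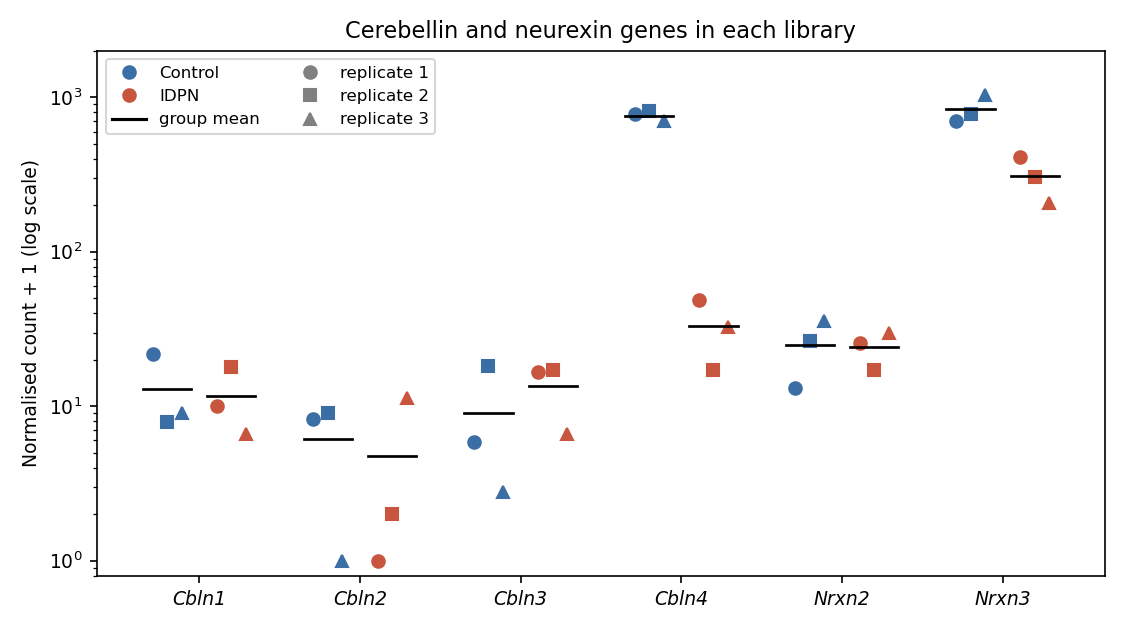
Normalised count plus 1 (log axis) of the 4 cerebellins and 2 neurexins in each of the 6 libraries, with Control in blue, IDPN in red, marker shape for the replicate number (which does not pair libraries) and a black line for the mean of count plus 1. The IDPN points lie under all Control points for Cbln4 and Nrxn3, and the groups overlap for Cbln1, Cbln2, Cbln3 and Nrxn2.

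To set the genes against each other, counts were divided by the mean transcript length of the gene and scaled to the same total in every library (the TPM scale). In Control the order of these per-length levels was Cbln4 at 6.84 ± 0.728, Nrxn3 at 6.76 ± 2.64, Nrxn2 at 0.216 ± 0.134, Cbln1 at 0.142 ± 0.0759, Cbln3 at 0.0619 ± 0.0615 and Cbln2 at 0.0530 ± 0.0462 (SD, n = 3 each). With this length Cbln4 and Nrxn3 did not differ beyond their spread, and neither did any neighbours among the 4 low genes. In IDPN the per-length level of Nrxn3 was 2.99 ± 1.29, that of Cbln4 was 0.369 ± 0.222, and the other 4 lay between 0.0525 and 0.248. The IDPN libraries ranged from 0.155 to 0.599 for Cbln4 and from 0.147 to 0.304 for Nrxn2, which overlap on this scale. With the longest transcript the IDPN means were 0.580 ± 0.353 for Cbln4 and 0.179 ± 0.0629 for Nrxn2, and with the union of exons 0.703 ± 0.430 and 0.105 ± 0.0367 (SD, n = 3 each), so the distance between them depended on the length used. The distance between Cbln4 and Nrxn3 in Control depended on the length too, with the mean of Cbln4 the higher for each length. With the longest transcript the Control levels were 10.4 ± 1.25 for Cbln4 and 4.36 ± 1.76 for Nrxn3. With the union of exons they were 12.5 ± 1.55 and 3.28 ± 1.34 (SD, n = 3 each).

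The share of Cbln4 in its family follows from the fold change that chose it, and is given as a description. This share was lower in every IDPN library than in any Control library. Cbln4 gave 95.9%, 96.2% and 98.6% of all cerebellin counts in Control 1 to 3, against 65.9%, 32% and 59.6% for IDPN 1 to 3. The other cerebellins together had 27, 28 and 11 estimated counts in Control, against 30, 34 and 23 with IDPN. Nrxn3 gave 98.3%, 96.9% and 96.7% of the counts of Nrxn2 and Nrxn3 in Control, against 94.3% and 87.7% in IDPN 1 and IDPN 3, with IDPN 2 the highest of the IDPN libraries at 94.95%. With the mean transcript length, the per-length ratio of Cbln4 to Nrxn3 was 1.26, 1.20 and 0.779 in Control. With IDPN it was 0.135, 0.0613 and 0.177, with no overlap, which also rests on the values that chose these genes.

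HC and neuron marker sums were lower in IDPN too, by an amount that depended on the scaling. Summed normalised counts of 10 HC markers ranged from 27304 to 28477 in Control and from 17796 to 18978 in IDPN, with none at 0 and 6 of 10 downregulated (Pou4f3, Gfi1, Otof, Lhfpl5, Tmc1 and Pcdh15, log2-Fold_Change -0.66 to -1.21). Myo7a (0.01, Padj = 0.987), Myo6 (-0.21), Cib2 (-0.25) and Strc (-0.24) were not called. The sum was lower by 0.60 on the log2 scale, with p = 0.1 in a two-sided exact permutation test, which can go no lower with 3 libraries a group. Summed counts of 10 neuron markers, most of them from Nefl and Nefm, ranged from 4995 to 5225 in Control and from 3180 to 3457 in IDPN, lower by 0.63 with the same exact p, with 3 of 10 downregulated (Nefl, Nefm and Snap25) and Elavl3 averaging under 1. Prph (1.51, Padj = 0.148) and Elavl4 (1.12, Padj = 0.626), both low, had estimates in the other direction. Tubb3 (10.2 in Control and 8.78 in IDPN), Stmn2 (10.9 and 8.68) and Nefh (4.07 and 1.54) had few normalised counts in both groups. The sum therefore follows Nefl, Nefm and Snap25, and need not stand for neuron content. With libraries scaled to total counts, the log2 ratio was -0.35 for the HC sum (exact permutation p = 0.2) and -0.39 for the neuron sum (0.1). Of 5 type I HC markers, Ocm, Bdnf, Atp2b2 and Kcna10 were downregulated with a log2-Fold_Change from -1.98 to -1.04. That range holds the -1.45 of Nrxn3 and not the -4.56 of Cbln4. The other marker, Spp1, was at -0.53 (Padj = 0.0502) and was not called. The paper lists all of them but Spp1 among genes lower in each of its comparisons, this one included. Their calls were therefore known beforehand and are given as a description. In these bulk samples fewer cells of a type and less RNA per cell cannot be told apart.

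Cbln4 and Nrxn3 were also set against the marker sums. Their fold changes chose them, so these ratios are given as a description. Per 1000 HC marker counts, Cbln4 had 28.3, 29.2 and 24.5 counts in Control, against 2.53, 0.903 and 1.74 with IDPN, a mean 15.8 times higher in Control. Per 1000 neuron marker counts, Cbln4 had 134 to 162 in Control and 4.65 to 15.1 in IDPN. The ratios of Nrxn3 differed less between the groups. Per 1000 HC marker counts, Nrxn3 had 25.9, 28.1 and 36.2 in Control, against 21.6, 17.0 and 11.3 with IDPN, a mean 1.81 times higher in Control, and the groups did not overlap. Per 1000 neuron marker counts, Nrxn3 had 135, 156 and 198 in Control, against 129, 87.4 and 62.3 with IDPN, where IDPN 1 lay close to Control 1. The part of HC and neuron content in these differences was not tested.

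**Figure D2:**
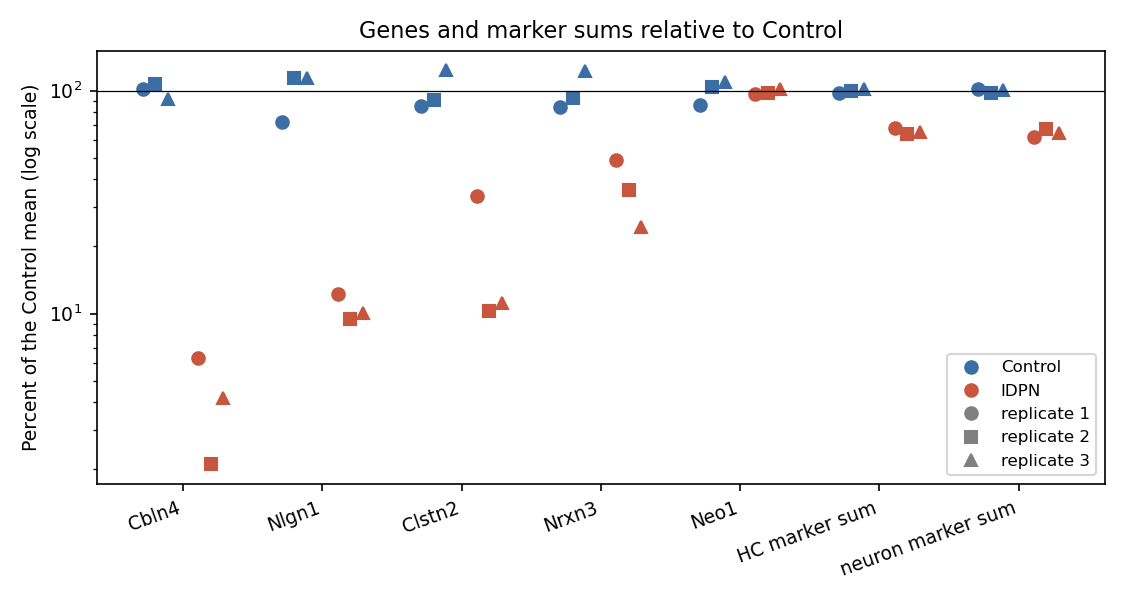
Normalised count of Cbln4, Nlgn1, Clstn2, Nrxn3 and Neo1, and summed normalised counts of 10 HC and 10 neuron markers, each as a percent of its Control mean (log axis) in every library, with Control in blue, IDPN in red and marker shape for the replicate number. IDPN libraries were at 2.11% to 6.31% of the Control mean for Cbln4, at 24.6% to 48.9% for Nrxn3, at 63.9% to 68.1% for the HC sum and at 96.4% to 102% for Neo1.

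Other tissue in the dissection was examined as a possible source of cerebellin reads. Of 9 cerebellar markers, Gabra6, Slc17a7 and Neurod1 had 0 counts in all libraries, and Pcp2 had reads in IDPN 2 alone. Fat2 averaged 205 normalised counts (log2-Fold_Change 0.23), Pvalb 155 (-0.59, Padj = 0.227), Calb1 108 (-0.59, Padj = 0.334), Zic1 71.5 and Zic2 18.3. The sum of the list was 563 to 647 in Control and 480 to 579 in IDPN (exact permutation p = 0.2). The paper names Pvalb among genes of important HC proteins, so the sum need not reflect cerebellar tissue. The supporting cell sum was lower in IDPN by 0.39 (exact permutation p = 0.1), but most of it is 1 gene, Otog (log2-Fold_Change -0.50, Padj = 0.0205, under the fold threshold). With libraries scaled to total counts, the log2 ratio of this sum was -0.15 (exact permutation p = 0.8). The median over the tested genes of the list was 0.046, with estimates of 0.66 for Lfng, 0.53 for Cyp26b1 and 0.27 for Otol1. The part of any of these cells in the cerebellin reads was not tested.

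Among the receptors for cerebellins, Neo1 lay near its Control level and was not called. Neo1, which encodes neogenin, had 631, 757 and 797 normalised counts in Control, against 702, 713 and 740 with IDPN, a log2-Fold_Change of -0.02 (SE 0.18, Padj = 0.975). Grid1, which encodes a delta receptor, averaged 6.34 ± 1.49 in Control against 4.69 ± 8.12 (SD, n = 3 each) after IDPN, all of the latter from IDPN 1. Dcc had reads in Control 2 alone, at 1.15 normalised counts.

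C1q-like proteins are relatives of the cerebellins. C1ql1, C1ql2 and C1ql3 averaged under 12 normalised counts in both groups, and the groups overlapped for each. C1ql4, the receptor gene Adgrb3 and the neurexophilin Nxph2 had 0 counts in all 6 libraries, which allows at most 0.0689 to 0.0741 CPM, taking 3 counts as the limit for a count of 0 in a library. This limit covers counting error only, and the protocol marks no single molecules.

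Cerebellins share the neurexins with other ligands, and of the partners tested Nlgn1 had the lowest log2-Fold_Change. Nlgn1 encodes neuroligin 1, a postsynaptic partner of neurexins known from excitatory synapses, and had 53.4, 84.3 and 84.5 normalised counts in Control, against 9.10, 7.03 and 7.47 with IDPN. The groups were well apart, with a log2-Fold_Change of -3.23 (SE 0.51, Padj = 5.38e-08). Nlgn2, the neuroligin of inhibitory synapses, averaged 169 ± 34.3 and 195 ± 28.0 (log2-Fold_Change 0.21, Padj = 0.782), and Nlgn3 283 ± 18.2 and 269 ± 78.5 (SD, n = 3 each, log2-Fold_Change -0.07, Padj = 0.939). The difference between Nlgn1 and the other neuroligins was not itself tested.

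Clstn2 encodes a calsyntenin, a postsynaptic cadherin-family protein reported to bind neurexins, and had 101, 107 and 145 normalised counts in Control, against 39.7, 12.0 and 13.1 with IDPN. It was downregulated with a log2-Fold_Change of -2.43 (SE 0.47, Padj = 1.62e-05), and IDPN 1 lay between the other IDPN libraries and Control. Nlgn1 and Clstn2 were called lower under all 12 alternative settings. Clstn1 averaged 3792 ± 507 and 4445 ± 206 and was not called (Padj = 0.509). Clstn3 averaged 558 ± 39.6 and 402 ± 94.5 (SD, n = 3) and was called only without IDPN 1 (log2-Fold_Change -0.68, Padj = 0.0438).

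Of the leucine-rich repeat ligands of neurexins, Lrrtm1 and Lrrtm4 had the most counts and were not called. Lrrtm1 had 89.7, 55.4 and 148 normalised counts in Control, against 53.0, 30.1 and 59.7 with IDPN (log2-Fold_Change -1.04, Padj = 0.157). Lrrtm4 averaged 122.5 ± 22.1 and 77.8 ± 10.5 (SD, n = 3; -0.65, Padj = 0.244). Lrrtm2, at a mean of 15.4, had an estimate in the other direction (0.43, Padj = 0.852). Dag1, the dystroglycan gene, was abundant and near its Control level, at 3999 ± 206 and 3897 ± 442 (SD, n = 3; -0.04, Padj = 0.949). Adgrl3, a latrophilin, averaged 353 ± 46.1 and 214 ± 10.4 (SD, n = 3) and was downregulated by 0.72 on the log2 scale (Padj = 0.0186). This call was lost in edgeR (Padj = 0.0610) and when any library but Control 2 was left out, with Padj between 0.0636 and 0.0932. The latrophilins Adgrl1 (0.36, Padj = 0.536) and Adgrl2 (-0.10, Padj = 0.895) were not called.

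Inside the terminal, neurexins bind scaffold proteins. Cask, a kinase-like scaffold at the neurexin tail, fell from 1362 ± 213 to 757 ± 97.6 normalised counts (SD, n = 3; log2-Fold_Change -0.85, SE 0.19, Padj = 0.000365). Apba1, which joins Cask and the Lin7 proteins in a complex, had 15466, 16181 and 12739 in Control, against 8161, 9664 and 8521 with IDPN (log2-Fold_Change -0.75, SE 0.16, Padj = 0.000148). Of the Lin7 genes, Lin7a (Padj = 0.964), Lin7b (Padj = 0.870) and Lin7c (Padj = 0.886) were not called.

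Other scaffolds are known from the postsynaptic side, but bulk RNA does not tell the side of a synapse or the cell it came from. Gphn, the gephyrin scaffold of inhibitory synapses, had 750, 628 and 628 normalised counts in Control, against 371, 256 and 286 with IDPN (log2-Fold_Change -1.13, SE 0.21, Padj = 6.50e-06). Shank2, a scaffold of excitatory synapses, averaged 441 ± 48.5 and 259 ± 32.3 (SD, n = 3; -0.77, Padj = 0.00770), and the call was lost without IDPN 2 (Padj = 0.0603). Dlg4, which encodes PSD-95, was low and not called, at 43.9 ± 17.0 and 37.4 ± 11.8 (SD, n = 3, Padj = 0.885).

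The splicing factors that act on the neurexin exon printed above differed in direction. Khdrbs2 averaged 71.9 ± 14.8 in Control and 24.8 ± 7.63 in IDPN (SD, n = 3; log2-Fold_Change -1.53, SE 0.44, Padj = 0.0119), and Khdrbs1 averaged 929 ± 210 and 1555 ± 209 (SD, n = 3; 0.74, SE 0.21, Padj = 0.00925). Khdrbs3 was not called (-0.31, Padj = 0.790). Both calls depended on the tool and on single libraries. With edgeR, Padj was 0.0688 for Khdrbs2 and 0.0648 for Khdrbs1. Khdrbs2 was lost without Control 3 (Padj = 0.0830), IDPN 2 (0.0847) or IDPN 3 (0.0668), and Khdrbs1 without Control 1 (0.0811), IDPN 2 (0.0541) or IDPN 3 (0.114). Whether the exon was used more or less in IDPN was not measured here.

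Over the whole list of 45 partners, 34 passed DESeq2's filter, of which 8 were called lower, beside 3.42% of all 17650 genes tested, and 1 higher, beside 2.32%. The median log2-Fold_Change was -0.27 for these 34 and 0.015 for all genes tested. The partner list was chosen with earlier results of these data known, so its counts and median are a description. In edgeR 6 of the 30 partners tested were lower, beside 2.19% of all genes, and 0 higher, beside 1.02%, with 1 higher at an unadjusted p under 0.05 in edgeR and 1 in DESeq2. Scaling to total counts, which shifts the median of all genes by 0.25 on the log2 scale, left 3 lower (Nlgn1, Clstn2 and Gphn) beside 1.28% of all genes and 1 higher (Khdrbs1) beside 3.64%. Cask, Apba1, Shank2, Adgrl3 and Khdrbs2 were then not called, with Padj from 0.0862 to 0.356, while the log2-Fold_Change was -4.26 for Cbln4 and -1.22 for Nrxn3. The HC and neuron marker sums were lower in the same libraries, and their part in these calls was not tested.

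**Figure D3:**
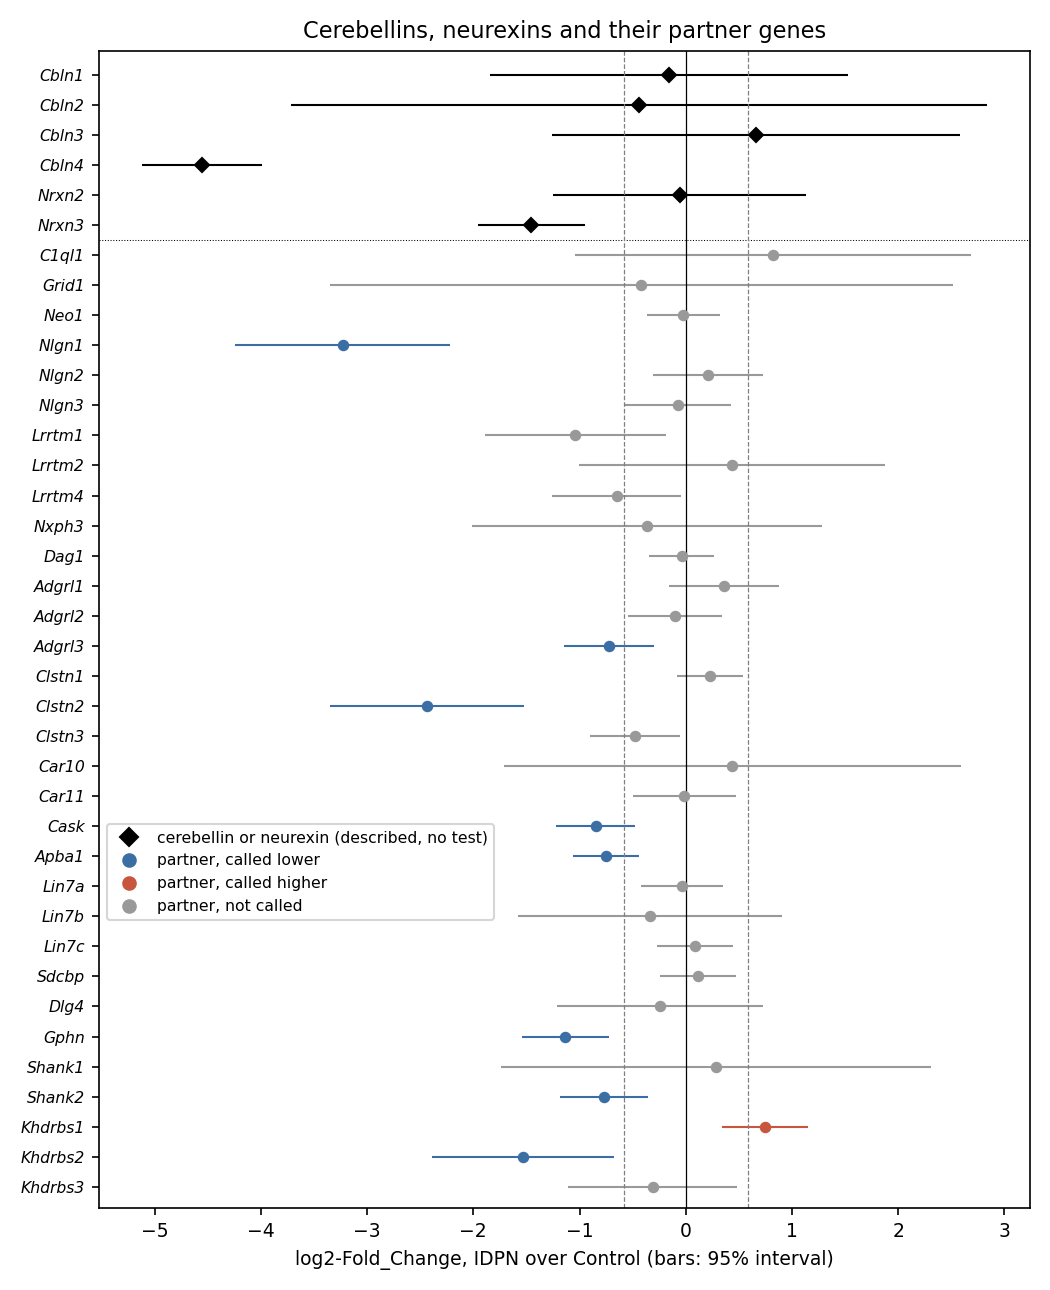
log2-Fold_Change of IDPN over Control with its 95% interval for the 6 cerebellin and neurexin genes (black diamonds, above the dotted line) and 32 of the partner genes tested (circles, blue for called lower, red for called higher, grey for not called), with dashed lines at a fold of 1.5. Cbln4 at -4.56 lies farthest to the left, followed by Nlgn1 at -3.23 and Clstn2 at -2.43.

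The genes whose profile over the 6 libraries was most like that of Cbln4 were Otof (Pearson r = 0.999), which encodes otoferlin, the calcium sensor of HC exocytosis, Tmem167 (0.998) and Trim9 (0.998), a ubiquitin ligase. For Nrxn3 they were Hepacam (0.997), a cell adhesion gene, Vwa3a (0.993) and Syn1 (0.993), the synapsin of synaptic vesicles. These r are over log2(normalised count + 1) of 6 libraries, with 11768 genes compared and many of them alike: 544 genes had an r over 0.9 with Cbln4 and 401 with Nrxn3. Taken over both groups, r rests largely on the difference between Control and IDPN that chose Cbln4 and Nrxn3, and is given as a description. The likeness is in shape and need not be in size. Otof differed by a log2-Fold_Change of -0.75, Trim9 by -1.25 and Tmem167 by -0.28, against -4.56 for Cbln4. Hepacam differed by -0.21 (SE 0.17), Syn1 by -0.46 (SE 0.27) and Vwa3a by -1.56 (SE 0.30), against -1.45 for Nrxn3. Between Cbln4 and Nrxn3, r was 0.914 over all 6 libraries, but -0.84 within Control and 0.32 within IDPN, with 3 libraries each.

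The start of Cbln4 is shown because no other gene of the pathway differed as much. The 250 bases before it in RefSeq (GRCm38.p6; chr2:172043467-172043716, minus strand) have a GC content of 60.8%, against a median of 52.4% over 32851 such windows. The window before 1 of the 3 Nrxn3 starts (chr12:89812233-89812482, plus strand) is set beside it. Capitals mark CANNTG, the E-box, and GGGCGG or its reverse complement CCGCCC, the GC box, searched on both strands.
Cbln4: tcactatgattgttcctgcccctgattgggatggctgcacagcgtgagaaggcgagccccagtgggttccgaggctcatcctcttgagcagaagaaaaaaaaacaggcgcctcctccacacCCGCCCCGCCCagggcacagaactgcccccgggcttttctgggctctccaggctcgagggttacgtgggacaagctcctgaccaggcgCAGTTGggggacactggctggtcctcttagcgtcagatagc
Nrxn3: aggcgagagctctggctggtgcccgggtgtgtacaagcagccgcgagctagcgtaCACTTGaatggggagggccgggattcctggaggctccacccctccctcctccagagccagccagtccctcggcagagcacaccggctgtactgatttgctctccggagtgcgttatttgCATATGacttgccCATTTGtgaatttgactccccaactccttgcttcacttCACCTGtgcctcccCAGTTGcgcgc
The Cbln4 window holds 1 CANNTG and 2 GC boxes, and the Nrxn3 window 5 CANNTG and 0 GC boxes. Of all windows, 66.2% hold CANNTG and 32.7% a GC box, so either match is common. The 2 other Nrxn3 starts hold 0 and 1 CANNTG and no GC box, so the window shown has the most CANNTG. Its GC content is 60%, against 45.6% and 46.8% for the others. The start shown lies inside the annotated gene, which begins at chr12:88722876. Counts per gene do not tell which start was used. A match describes the letters and does not show that a factor binds there.

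Cbln4 and Nrxn3 lie apart from other protein-coding genes. Within 250 kb of Cbln4 the only protein-coding gene, Mc3r, had 0 counts in all libraries, and Nrxn3 has no protein-coding neighbour in that distance. Khnyn, 555 bases from Cbln3, had a log2-Fold_Change of 0.11 (Padj = 0.868). The exons of Nrxn3 share 439 of 12605 bases with Gm37980 on the opposite strand, which had 0 to 6 counts per library, and those of Cbln4 overlap no other gene. The longest run that any 2 of the 6 genes share is 23 bases, against reads of 76 bases.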

How the data were processed

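What was measured is gene expression by RNA-seq (SMART-seq2, oligo-dT priming, 8 and 12 PCR cycles, 6 to 11 ng RNA) in 3 Control and 3 IDPN libraries. The deposited values are expected counts, which the authors estimated with RSEM 2.3.0 after STAR 2.5.3a alignment to GRCm38 with the gencode.M15 annotation; they are whole numbers, not normalised. RSEM divides reads that fit several genes, and the protocol as described does not keep strand, so overlapping antisense reads cannot be separated.

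Differences were fitted on all genes with DESeq2 1.42.0 (Wald test, no covariate), and Padj is Benjamini-Hochberg adjusted over all genes tested. A call needed Padj under 0.05 and a fold change over 1.5, as in the study's methods. The edgeR 4.0.16 quasi-likelihood test was the alternative, with other size factors, a minimum of 10 counts in 3 libraries, no independent filtering, a test against the 1.5-fold, and each library left out. Labels give no replicate numbers, so libraries are numbered in accession order. Each library is a separate animal.

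Lengths came from GENCODE M21 (GRCm38), a later release than the authors' annotation, and covered 99.7% of genes. Marker sums were compared by two-sided exact permutation. The genes, partner list and marker lists were chosen with earlier results of these data known. Named were the 6 genes, every called partner and some partners not called. For Cbln4 and Nrxn3 (mean of at least 100) the 3 genes of highest r were named. The code was tested on simulated data. Sequences came from GENCODE M21 and RefSeq. Some partner genes and sequences are counted in the list or were read but are not reported here.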

Additional observations from a re-analysis of the deposited data

How the results depend on the processing

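Of the 45 partners, 3 were called lower with total-count size factors and 2 when tested against a fold of 1.5, in place of 8, and 5 to 8 when single libraries were left out, with 5 without IDPN 2. The count called higher, 1 with DESeq2, was 0 in edgeR's quasi-likelihood test, where 1 partner was higher at an unadjusted p under 0.05, 0 against a fold of 1.5, and 0 to 1 with a library left out. The log2-Fold_Change of Cbln4 lay between -4.98 and -4.25 with a library left out, and that of Nrxn3 between -1.72 and -1.24. That of Cbln2 ranged from -3.43 to 0.16 and that of Cbln3 from 0.17 to 1.94. Total-count scaling turned the log2 ratio of the type II HC sum to 0.12, of the cerebellum sum to 0.036 and of the endothelium sum to 0.081; with single libraries left out the endothelium ratio ranged from -0.36 to 0.056, and was 0.00069 without IDPN 3. The cause was not tested beyond the shift in scaling. No paired analysis was possible because the labels give the libraries no shared replicate numbers. With 16 to 58 estimated counts in IDPN, depth limits the precision of the Cbln4 fold change, and the lower cerebellins are limited throughout.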

Other observations

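The remaining marker sums are given as values. The 4 type I HC markers downregulated here were known as such from the paper. The log2 ratio of summed normalised counts, IDPN over Control, was -0.55 for 5 type I HC markers (exact permutation p = 0.1, 4 of 5 downregulated; nearly all of this sum is Spp1, at -0.53 and not called, and the list's median was -1.15), -0.15 for 4 type II HC markers (0.2, 1 downregulated) and -0.39 for 7 supporting cell markers (0.1). It was -0.60 for Schwann cell markers (exact permutation p = 0.2), 0.33 for stroma (0.4), 0.24 for macrophage (0.4), -0.17 for endothelium (0.5) and 0.56 for melanocyte markers (0.3). Of the endothelium markers, Kdr alone was downregulated (log2-Fold_Change -1.14, Padj = 9.96e-05). The Schwann cell sum of Control 1 was 234393, against 106035 to 124513 in the other Control libraries.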
